A study of Mus musculus with 30 samples.

Results

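The genes described here are 9 secreted neurotrophic and growth factors: Bdnf, Vegfa, Fgf2, Ptn, Mdk, Dbi, Gdnf, Ntf3 and Cntf. They were taken by name from the gene count tables of the subventricular zone (SVZ) and the striatum, in which all 9 had a row among 53278 and 50508 genes respectively. RNA was sequenced from both tissues of the same 15 C57Bl/6 mice, 1 library per mouse and tissue. The NestinTK+ mice carry thymidine kinase under the second-intron enhancer of Nestin, and ganciclovir (GCV), infused for 4 weeks by a minipump under the skin, kills dividing cells that express it. The 5 NestinTK+ GCV mice (A1 to A5) were the ablated group, and the 10 controls were 3 NestinTK- GCV (G1 to G3), 3 NestinTK- PBS (P1 to P3) and 4 NestinTK+ PBS mice (T1 to T4). The age and sex of the sequenced mice are not given in the labels. The transgene marks Nestin-expressing cells rather than a single precursor class, and the endogenous precursors (eNPCs) of NestinTK- mice and of PBS-treated mice were spared. In both tissues every GCV library had a lower library number than every PBS library. What that number stands for is not given in the labels, and it cannot be told apart from treatment.

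The SVZ libraries were called neural precursor cells in the labels but came from dissected tissue. In the control mice their summed level of 10 medium spiny neuron markers was 5338 to 11203 CPM (counts per 1 M counts of the library, TMM-normalised). That of 10 neuroblast markers in the same mice was 309 to 683 CPM. The summed level of 10 genes of dividing cells was 8.79 to 35.2 CPM in the ablated and 59.3 to 180 CPM in the control SVZ, with no overlap. That of 10 stem and transit-amplifying markers overlapped, at 145.4 to 248.9 CPM in the ablated and 148.3 to 329.9 CPM in the control SVZ. The median log2 fold change of these 10 markers was -0.10, and 1 was lower at an unadjusted p under 0.05 by edgeR. In a bulk sample, fewer cells of a type and less RNA per cell cannot be told apart. Total counts per library were 8.36 M to 9.60 M in the ablated and 8.95 M to 21.1 M in the control SVZ, and 2.63 M to 3.37 M and 2.78 M to 4.69 M in the striatum. Ttr, the choroid plexus gene, took 4.49 to 9.88% of the counts of the SVZ libraries of P1, P2 and T1 and under 1% of every other. In the striatum T4 stood apart, with a medium spiny neuron sum of 4897 CPM against 9488 to 12943 CPM in the other 14 libraries.

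Secreted factors reach precursors and neurons as paracrine signals. BDNF and NT-3 (Ntf3) are neurotrophins that signal through the TrkB and TrkC receptors, GDNF signals through GFRα1 with RET, and CNTF through its own receptor subunit with gp130. VEGF-A acts on endothelium through VEGFR2, FGF2 is a mitogen of neural stem cells, pleiotrophin (Ptn) and midkine (Mdk) are heparin-binding cytokines that share the receptors PTPRZ1 and ALK, and Dbi encodes diazepam-binding inhibitor, an acyl-CoA-binding protein whose secreted form modulates GABA-A receptors. In the adult SVZ niche these factors are known to come from several sources, among them astrocytes, endothelium, ependyma and the precursors themselves.

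The factors spanned a wide range of levels, and only a few were measured well. In the control SVZ, in CPM per kilobase of exon, the median level was 404 for Dbi, 78.7 for Ptn, 30.5 for Mdk and 4.30 for Vegfa. It was 0.848 for Gdnf, 0.636 for Fgf2, 0.167 for Cntf and 0 for Bdnf and Ntf3. The ranges over the 10 control mice did not overlap between Dbi (225 to 510) and Ptn (49.7 to 120), nor between Ptn and Mdk (7.76 to 40.0). From Mdk downward each gene overlapped its next neighbour. In the control striatum, where each read is a 3′ tag of a transcript, the median CPM was 703 for Dbi, 319 for Ptn, 45.1 for Vegfa, 14.3 for Mdk, 3.61 for Gdnf and 3.26 for Fgf2. The ranges of Dbi, Ptn, Vegfa, Mdk and Gdnf did not overlap between neighbours in that order, whereas Gdnf (1.60 to 6.10 CPM) and Fgf2 (1.07 to 5.80 CPM) did. Bdnf (median 0.702 CPM), Cntf (0.118 CPM) and Ntf3 (0 CPM) were lowest and lay at or under 3 counts per library in at least 6 of the 10 control mice. The kits differed between the tissues, so levels are not compared across them.

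**Figure D1:**
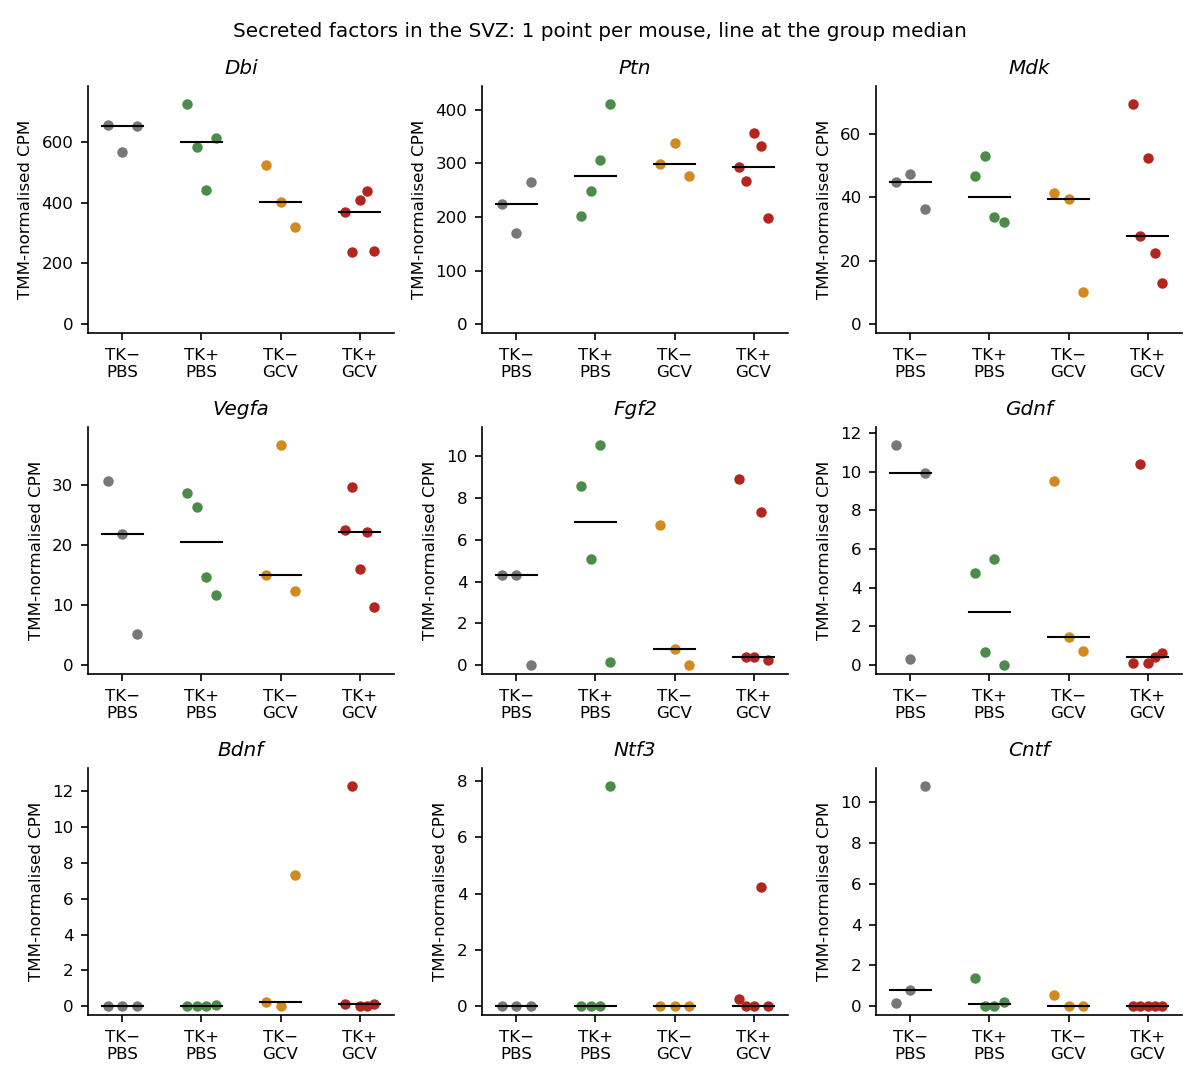
The 9 factors in the SVZ, 1 panel per gene, as TMM-normalised CPM (vertical axis, from 0) in the 4 groups, with 1 point per mouse and a line at the group median. The median of Dbi is lower in both GCV groups than in both PBS groups, the ablated mice overlap the controls for Ptn, Mdk and Vegfa, and Bdnf, Ntf3 and Cntf are near 0 outside a few single libraries.

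**Figure D2:**
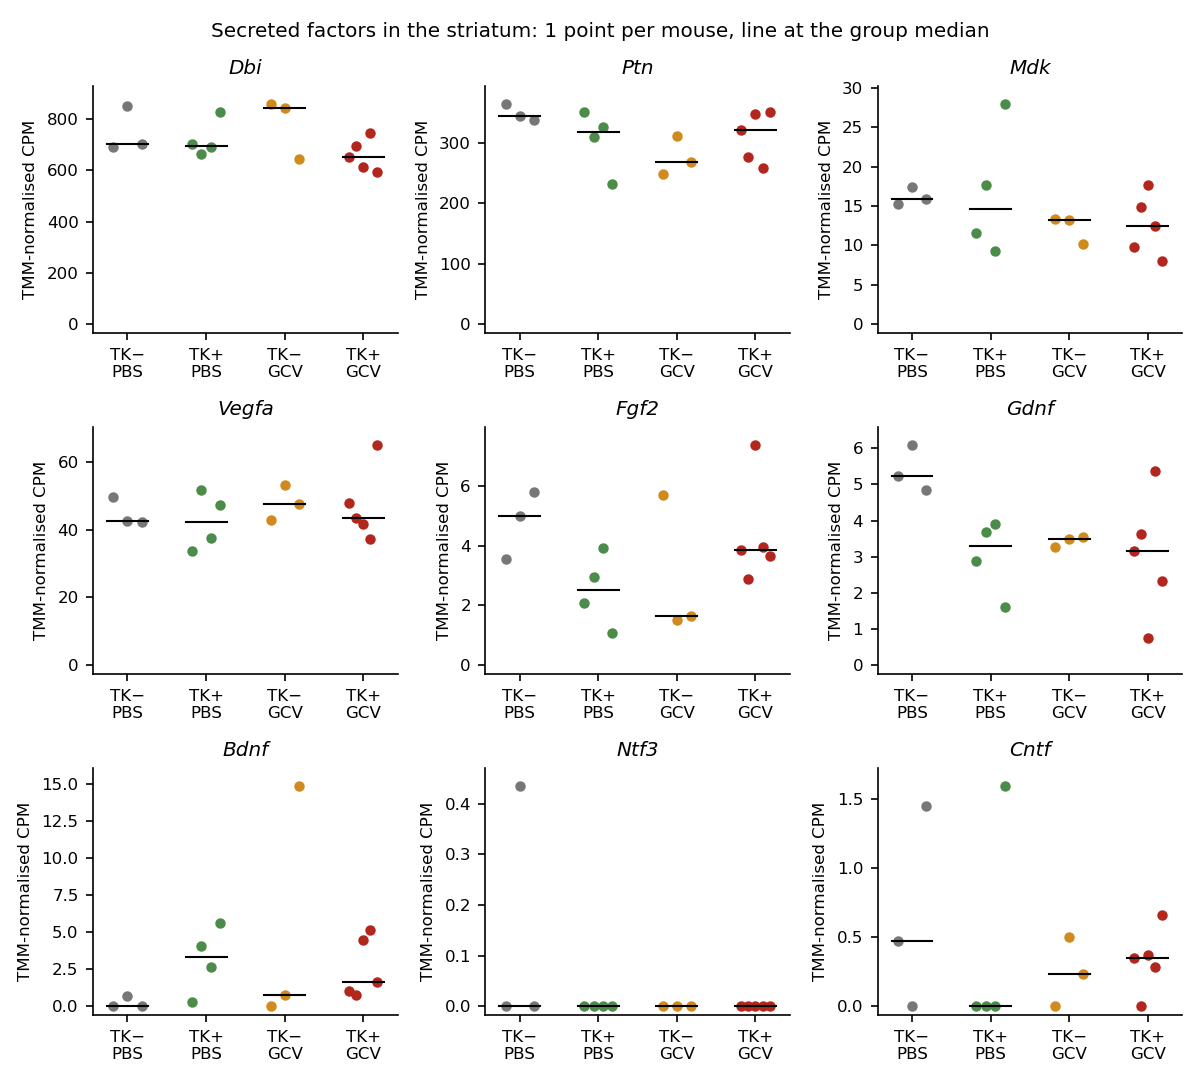
The same 9 factors in the striatum of the same mice, drawn in the same way. The ablated mice overlap the controls for Dbi, Ptn, Vegfa and Mdk, T4 stands above all others for Mdk at 28.0 CPM, and G3 for Bdnf at 14.9 CPM.

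The first question was which factors changed where precursors were ablated. Dbi was the single factor with a lower level in the ablated SVZ at an unadjusted p under 0.05, and Ptn, Mdk and Vegfa, the other well-measured ones, differed by less than the spread between mice. Genes were called at a nominal p of at most 0.01 and a change of at least 2-fold. By that rule 0 of the 6 factors tested in the SVZ and 0 of the 7 tested in the striatum were called, where 1.59% and 0.694% of all genes tested were. At an adjusted p under 0.05 by edgeR's quasi-likelihood test, again 0 factors passed in either tissue, against 0.00611% and 0.182% of all genes. At an unadjusted p under 0.05, 1 factor passed in the SVZ and 0 in the striatum, against 9.79% and 10.5% of all genes. Bdnf, Ntf3 and Cntf in the SVZ and Ntf3 and Cntf in the striatum were at or under 1 CPM in too many libraries to be tested. The median log2 fold change over the factors tested was -0.14 in the SVZ and -0.13 in the striatum, beside -0.03 and 0.00351 over all genes tested.

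**Figure D3:**
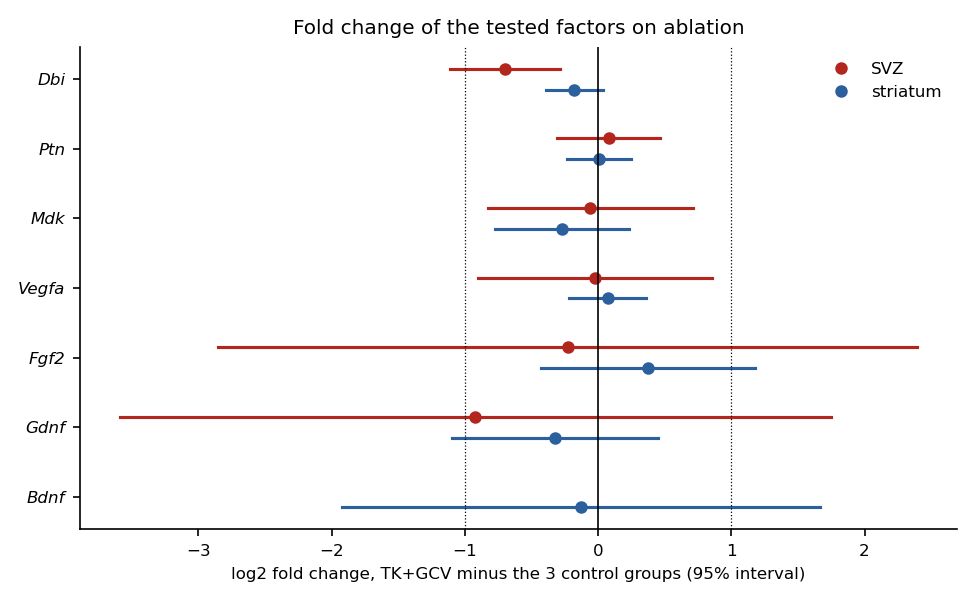
Log2 fold change of the factors tested, ablated minus the 10 control mice (horizontal axis), with its 95% interval, for the SVZ in red and the striatum in blue; dotted lines mark a 2-fold change. The interval of Dbi in the SVZ, -1.11 to -0.29, lies below 0, and the intervals of Fgf2 and Gdnf in the SVZ reach past a 2-fold change on both sides.

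Dbi lies on chromosome 1 (GRCm38, chr1:120113280-120121078, minus strand), with 5 separate exon blocks. The 250 bases before its more downstream RefSeq start and those before the start of Ptn are shown because these were the most abundant factors and only Dbi was lower in the ablated SVZ. Both are from RefSeq (GRCm38.p6), 5′ to 3′ on the gene's strand, with a CCAAT box (CCAAT or its complement ATTGG) in capitals. The Dbi window is chr1:120120920-120121169, which overlaps the window of the other Dbi start, and the Ptn window is chr6:36810180-36810429.
Dbi: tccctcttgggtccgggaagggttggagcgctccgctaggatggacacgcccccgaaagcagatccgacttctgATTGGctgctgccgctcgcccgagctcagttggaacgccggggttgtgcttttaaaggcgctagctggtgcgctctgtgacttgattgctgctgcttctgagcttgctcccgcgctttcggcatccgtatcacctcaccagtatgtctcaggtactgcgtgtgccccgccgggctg
Ptn: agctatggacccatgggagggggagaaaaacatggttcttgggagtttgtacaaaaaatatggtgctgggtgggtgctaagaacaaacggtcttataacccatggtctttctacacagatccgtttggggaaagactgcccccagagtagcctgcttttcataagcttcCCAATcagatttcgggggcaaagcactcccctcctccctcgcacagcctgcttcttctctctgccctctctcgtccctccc
Each printed window held 1 CCAAT box, and 33.8% of the 32851 mouse promoter windows held at least 1. The overlapping window of the other Dbi start held 0 CCAAT boxes. Part of each printed window lies inside its gene as annotated, since Dbi runs to position 120121078 and Ptn to position 36810220. Neither printed window held a GC box (GGGCGG or CCGCCC), which 32.7% of windows did. The GC content was 61.6% for Dbi and 52% for Ptn. Of the 9 factors 8 had a start in that table, and Mdk is named only.

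Dbi in the ablated SVZ was at 368, 238, 408, 437 and 239 CPM in A1 to A5. In NestinTK- GCV mice it was at 524, 403 and 321 CPM, in NestinTK- PBS mice at 653, 566 and 651 CPM, and in NestinTK+ PBS mice at 725, 584, 442 and 613 CPM. The ablated libraries ranged from 238 to 437 CPM. G2 and G3, which received GCV without the transgene, lay within the ablated range. Against the 10 controls the level was 1.62-fold lower (95% interval 1.22 to 2.16; log2 fold change -0.70, SE 0.197, adjusted p = 0.347 by edgeR). An exact permutation test over the 3003 splits of the mice into 5 and 10 gave p = 0.00999 (two-sided, smallest possible 0.000666). With DESeq2 the adjusted p was 0.0379, and over all other settings tried it ran up to 0.999.

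By the 4 groups, Dbi was lower with GCV than with PBS in both genotypes at an unadjusted p under 0.05. NestinTK+ GCV mice were lower than NestinTK+ PBS mice by a log2 difference of -0.81 (SE 0.213, adjusted p = 0.626). Every NestinTK+ GCV library lay below every NestinTK+ PBS library, the nearest at 437.36 and 441.69 CPM, which was so for 1.72% of all genes tested. NestinTK- GCV mice were lower than NestinTK- PBS mice by -0.58 (SE 0.261, adjusted p = 0.644). Between the GCV groups the difference was -0.30 (95% interval -0.78 to 0.19), and between the PBS groups -0.08 (95% interval -0.59 to 0.43). The interaction of genotype and treatment was -0.22 (95% interval -0.93 to 0.49), so that an effect of GCV particular to the transgene was not shown for Dbi. None of these 5 contrasts reached an adjusted p under 0.05.

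**Figure D4:**
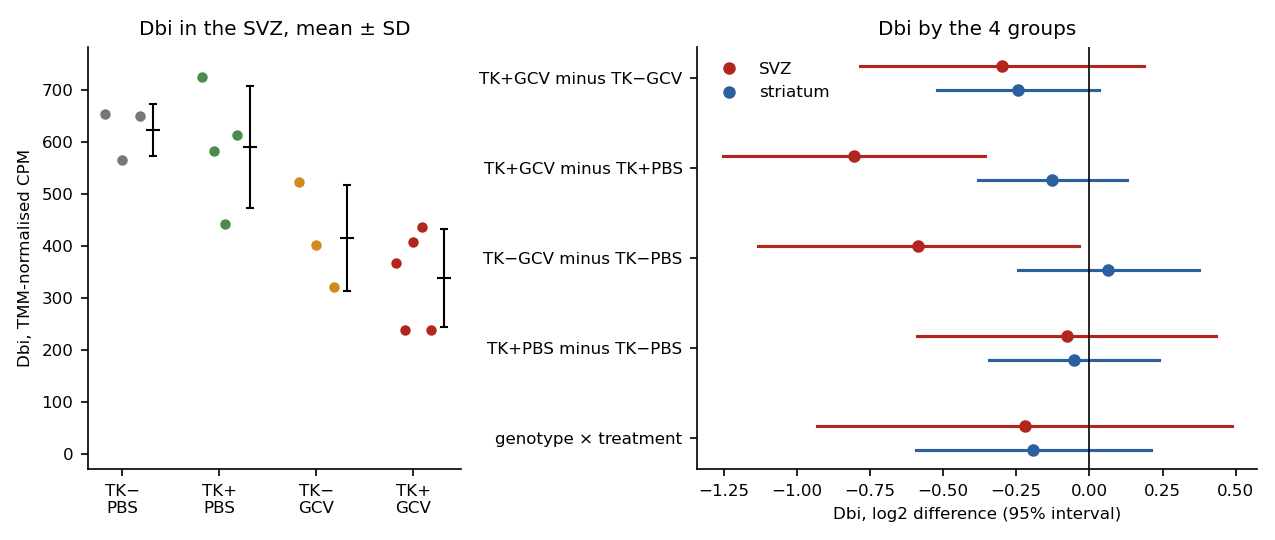
Left, Dbi in the SVZ as TMM-normalised CPM by group, 1 point per mouse with mean ± SD beside; right, the log2 differences of Dbi for the 5 contrasts of the 4 groups with 95% intervals, SVZ in red and striatum in blue. In the SVZ the intervals of both GCV minus PBS contrasts lie below 0, and that of the interaction holds 0.

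Markers of other cells were lower in the ablated SVZ for some cell types and not for others. The summed level of 10 ependymal markers was 296, 24.5, 85.0, 166 and 28.7 CPM in A1 to A5 and 99.2 to 418 CPM in the controls, and A2 and A5 had the lowest values of both Dbi and these markers. Among the ablated mice A1 was highest in these markers, but lower in Dbi (368 CPM) than A3 (408 CPM) and A4 (437 CPM). All 10 ependymal markers had a fold change below 0, 2 of them called, none was at 0 counts in every ablated library, and their part in the level of Dbi was not tested. The summed level of 10 astrocyte markers was 3887 to 5892 CPM in the ablated and 3134 to 5103 CPM in the control SVZ, and 0 of the 10 were called. The summed level of 10 neuroblast markers was 210 to 403 CPM in the ablated and 309 to 683 CPM in the control SVZ, and 4 of the 10 were called as lower, with a median log2 fold change of -1.45. Mitochondrial genes took 13.1 to 17.0% of the counts in the ablated SVZ (median 15.5%) and 6.69 to 15.2% in the control SVZ (median 11.2%). Their part in the level of Dbi was not tested either. Without P1, P2 and T1, whose libraries held choroid plexus RNA, the log2 fold change of Dbi was -0.58 (adjusted p = 0.673). Leaving out any 1 mouse gave -0.80 to -0.58.

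In the striatum Dbi was at 652, 696, 614, 748 and 596 CPM in the ablated mice. The control libraries lay between 645 and 861 CPM with a median of 703 CPM. The groups overlapped, and the log2 fold change was -0.18 (SE 0.103, adjusted p = 0.575; exact permutation p = 0.0619). The per-mouse difference between SVZ and striatum, tested with limma, differed between ablated and control mice by -0.53 on the log2 scale (SE 0.255, adjusted p = 0.502). Its unadjusted p was above 0.05, and was under it without A3, G2 or G3 and without the mouse as a block, with adjusted p-values by limma of at most 0.503. Of the 14197 genes tested in both tissues, 0.0282% passed at an adjusted p under 0.05 and 10.1% at an unadjusted p under 0.05, and 0 of the 6 factors tested in both passed at either.

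The heparin-binding cytokines Ptn and Mdk differed little between groups. Ptn (chr6:36714929-36810220, minus strand) was at 292, 268, 356, 333 and 199 CPM in the ablated SVZ and between 171 and 411 CPM in the controls, with a median of 270 CPM. The ablated values lay inside the control range, with a log2 fold change of 0.08 (SE 0.185, 95% interval -0.31 to 0.47). The sign turned under 5 of the 24 settings. In the striatum Ptn was at 322, 276, 347, 259 and 352 CPM in the ablated and 232 to 365 CPM in the control mice, a log2 fold change of 0.00673 (95% interval -0.24 to 0.25). A 2-fold change of Ptn lay outside both intervals. Among the contrasts of the 4 groups, Ptn in the striatum was lower in NestinTK- GCV than in NestinTK- PBS mice by a log2 difference of -0.34 (adjusted p = 0.301).

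Mdk (chr2:91929805-91932297, minus strand) was at 69.6, 27.9, 52.5, 22.4 and 12.9 CPM in the ablated SVZ. The controls lay between 10.3 and 52.9 CPM with a median of 40.4 CPM, G3 being the lowest. A1 was the highest of the 15 libraries and A5 the lowest but for G3, so that the ablated mice spread over the whole range, and the log2 fold change was -0.06 (SE 0.367, 95% interval -0.82 to 0.71). In the striatum Mdk was at 9.86, 14.9, 17.7, 12.5 and 7.97 CPM in the ablated mice and at 9.35 to 28.0 CPM in the controls. The log2 fold change there was -0.27 (SE 0.242, 95% interval -0.77 to 0.23), and without T4, the highest library, it was -0.13.

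Vegfa (chr17:46016993-46032369, minus strand) was at 22.5, 29.7, 16.0, 22.2 and 9.78 CPM in the ablated SVZ and at 5.24 to 36.8 CPM in the controls, with a median of 18.4 CPM. The groups overlapped fully, and the log2 fold change was -0.02 (SE 0.42, 95% interval -0.90 to 0.85). In the striatum it was at 47.9, 43.5, 41.7, 37.1 and 65.1 CPM in the ablated and 33.8 to 53.2 CPM in the control mice. The log2 fold change there was 0.07 (SE 0.139, 95% interval -0.21 to 0.36). The summed level of 10 endothelial markers, cells on which VEGF-A acts, was 233 to 326 CPM in the ablated and 161 to 285 CPM in the control SVZ.

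Fgf2 and Gdnf were present in some SVZ libraries of every group and nearly absent from others. Fgf2 (chr3:37348346-37410108, plus strand) was at 8.92, 0.41, 0.373, 7.32 and 0.248 CPM in the ablated SVZ and at 0 to 10.6 CPM in the controls. Its log2 fold change was -0.23 with a 95% interval of -2.85 to 2.39, so that neither a 2-fold rise nor a 2-fold fall was detectable at this spread. In the striatum Fgf2 was measured more evenly, at 2.90 to 7.39 CPM in the ablated and 1.07 to 5.80 CPM in the control mice, with a log2 fold change of 0.38 (SE 0.39, 95% interval -0.43 to 1.18). With the mouse number series as a covariate that value was 1.24 (adjusted p = 0.161) and Fgf2 was called. It shares 640 exon bases, 9.44% of its own, with Nudt6 on the opposite strand, and whether reads were counted by strand is not given in the sources used here.

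Gdnf (chr15:7810846-7837575, plus strand) was at 0.119, 10.4, 0.124, 0.424 and 0.619 CPM in the ablated SVZ and at 0 to 11.4 CPM in the controls. A2 alone was high among the ablated mice, and 5 of the 10 controls (G1, P1, P3, T1 and T3) were at 4.79 to 11.4 CPM. The log2 fold change was -0.92 (SE 1.28, 95% interval -3.59 to 1.75), and without A2 it was -3.73 (adjusted p = 0.421). In the striatum Gdnf was at 0.739 to 5.38 CPM in the ablated and 1.60 to 6.10 CPM in the control mice, a log2 fold change of -0.32 (SE 0.375, 95% interval -1.10 to 0.45).

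Bdnf (chr2:109674700-109727007, plus strand) was seen in 2 SVZ libraries alone, at 12.3 CPM (90 counts) in A2 and 7.35 CPM (98 counts) in G3. The other 13 SVZ libraries held 0 to 3 counts. Bdnf in the forebrain is known as a product of cortical excitatory neurons, from which it is carried to the striatum. The summed level of 10 cortical excitatory neuron markers in the SVZ was highest in the same libraries, 1581 CPM in G3 and 1519 CPM in A2 against 284 to 1067 CPM in the other 13, and their part in the Bdnf counts was not tested.

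**Figure D5:**
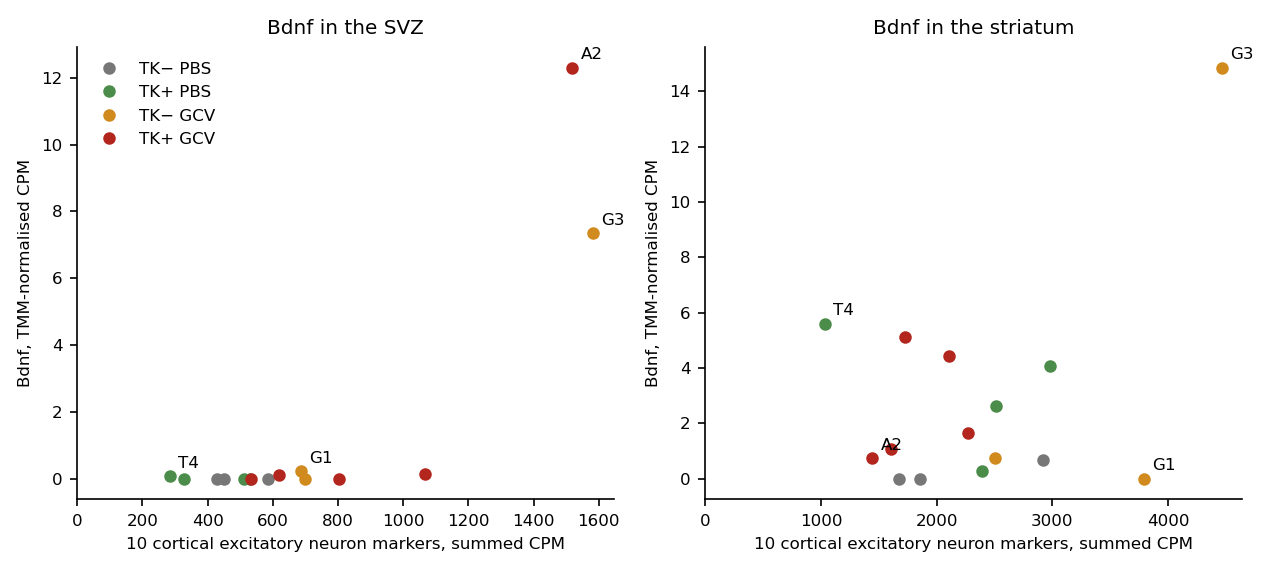
Bdnf (vertical axis, TMM-normalised CPM) against the summed CPM of 10 cortical excitatory neuron markers (horizontal axis) in the SVZ, left, and the striatum, right, with 1 point per library coloured by group. In the SVZ A2 and G3 are apart from the other 13 libraries on both axes; in the striatum G3 is highest on both, and G1, second highest in the markers, has no Bdnf count.

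In the striatum Bdnf was at 1.06, 0.725, 4.43, 5.10 and 1.66 CPM in A1 to A5. It was at 0, 0.75 and 14.9 CPM in the NestinTK- GCV, 0, 0.654 and 0 CPM in the NestinTK- PBS, and 0.262, 4.06, 2.61 and 5.60 CPM in the NestinTK+ PBS mice. The NestinTK- PBS mice were the lowest group and G3 the highest library. Against the 10 controls the log2 fold change of the ablated mice was -0.13 (SE 0.868). In the 4 groups Bdnf was the single factor called: higher in NestinTK- GCV than in NestinTK- PBS mice (fitted log2 difference 4.33, SE 1.35, adjusted p = 0.0915) and with an interaction of -4.56 (SE 1.62, adjusted p = 0.164). Of the 66 counts in the NestinTK- GCV mice 63 were in G3, and the NestinTK- PBS mice held 3 counts in all, so the fitted size is no measure of the change. Without G3 these values were 0.68 (adjusted p = 0.889) and -0.92 (adjusted p = 0.873). The first call was lost without G3, P1 or P3, and the second without any of A1, A2, A5, G3, P1, P3, T2, T3 or T4. The cortical excitatory neuron sum was 4465 CPM in G3 and 3792 CPM in G1, the highest of the striatum, and G1 had no Bdnf count. Bdnf shares 896 exon bases with the antisense gene Gm45346.

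Apart from Bdnf, 0 factors were called in any of the 5 contrasts of either tissue. The share of all genes called in the SVZ was 0.953% for NestinTK+ GCV against NestinTK- GCV, 1.19% for NestinTK+ GCV against NestinTK+ PBS, 1.07% for NestinTK- GCV against NestinTK- PBS, 0.208% for NestinTK+ PBS against NestinTK- PBS and 0.849% for the interaction. In the striatum it was 2.1%, 1.35%, 2.46%, 0.83% and 3.28% in the same order. The contrasts share groups and are given side by side.

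Ntf3 (chr6:126101412-126166910, minus strand) was seen in the SVZ of A4 at 4.24 CPM (40 counts) and of T4 at 7.83 CPM (113 counts), in A1 with 2 counts, and was at 0 in the other 12 libraries. In the striatum it was at 0 in 14 of the 15 libraries. A count of 0 allows a level of up to 0.144 to 0.410 CPM in the SVZ and 0.652 to 1.11 CPM in the striatum (3 counts per library, on the TMM scale). Cntf (chr19:12763660-12765632, minus strand) was at 0 in all 5 ablated SVZ libraries and at 0 to 10.8 CPM in the controls, with P3 at 10.8 CPM and T1 next at 1.37 CPM. The 5 ablated libraries allow levels of up to 0.318 to 0.410 CPM each. Of the 10 controls 6 held 0 to 3 counts, and the other 4 (G1, P2, P3 and T1) were at 0.571 to 10.8 CPM. In the striatum Cntf was at 0 to 1.60 CPM. The Cntf exons share 847 bases, 78.9% of their length, with Zfp91 on the same strand, which leaves its counts uncertain.

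Receptors were the second group examined. Of 27 receptor genes, all tested in both tissues, 1 was called in the SVZ and 0 in the striatum. At an unadjusted p under 0.05, 4 were lower and 5 higher in the SVZ, and 5 lower and 2 higher in the striatum. Among all genes tested 1.59% and 0.694% were called and 9.79% and 10.5% had an unadjusted p under 0.05. The median log2 fold change of the receptor genes was 0.26 in the SVZ and -0.13 in the striatum, beside -0.03 and 0.00351 over all genes tested. The called gene was Gfra1 (chr19:58235604-58455909, minus strand), the GDNF-binding co-receptor. It was at 6.66, 3.42, 5.47, 8.06 and 5.94 CPM in the ablated SVZ and at 7.36 to 37.1 CPM in the controls with a median of 12.6 CPM. Only P3, at 7.36 CPM, lay inside the ablated range, and the level was 2.86-fold lower (95% interval 1.40 to 5.88; adjusted p = 0.373 by edgeR; exact permutation p = 0.00133). The direction held when any 1 mouse was left out, with log2 fold changes of -1.65 to -1.31. The call was lost without A1, A2, A3, A5, G1, G2 or P1 and under 6 other settings, with log2 fold changes there of -1.79 to -1.16. In the striatum Gfra1 was at 40.8 to 56.2 CPM in the ablated and 32.9 to 51.7 CPM in the control mice (log2 fold change 0.20, adjusted p = 0.622). The difference between tissues was -1.55 (SE 0.426, adjusted p = 0.280 by limma). Ret, the signalling partner of GFRα1, was at 0 to 4.46 CPM in the ablated and 0 to 15.2 CPM in the control SVZ.

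The main receptors of the other factors were not called in either tissue. Ntrk2 (TrkB, for BDNF) had a log2 fold change of -0.11 (SE 0.134) in the SVZ and -0.10 (SE 0.0939) in the striatum, and Ntrk3 (TrkC, for NT-3) of 0.27 (SE 0.18) and -0.04 (SE 0.121). Ptprz1, the receptor of pleiotrophin and midkine, had 0.10 (SE 0.209) and -0.13 (SE 0.123), and Fgfr1 0.07 (SE 0.231) and 0.20 (SE 0.162). These intervals hold 0 and leave out a 2-fold change. Alk was at 0 to 27.1 CPM in the ablated SVZ and 0 to 10.2 CPM in the controls (log2 fold change 2.34, SE 1.19). Kdr (VEGFR2) was at 9.44 to 29.0 CPM in the ablated and 0.0714 to 24.7 CPM in the control SVZ, where P2 was the one control above the ablated median. Its log2 fold change was 1.35 (SE 0.742; exact permutation p = 0.018), and -0.05 (SE 0.2) in the striatum. Flt1 (VEGFR1) had 0.53 (adjusted p = 0.464) in the SVZ and -0.11 (adjusted p = 0.876) in the striatum. Cntfr, the CNTF receptor subunit, had 0.92 (adjusted p = 0.462) and -0.30 (adjusted p = 0.784), and without A2, at 73.2 CPM the highest, it had 0.25 in the SVZ, whereas without A1 it was called at 1.17.

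A few further receptor genes, named after their values were seen, had unadjusted p-values under 0.05 and adjusted ones above it. Il6st (gp130, the signalling subunit for CNTF) was at 22.6 to 45.4 CPM in the ablated and 40.7 to 84.1 CPM in the control SVZ (log2 fold change -0.76, SE 0.235, adjusted p = 0.356). In the striatum it was at 14.2 to 19.9 and 17.0 to 29.2 CPM (-0.48, SE 0.168, adjusted p = 0.292). Fgfr2 was lower in both tissues, by -0.66 (adjusted p = 0.5001) and -0.49 (adjusted p = 0.454), and was called in the SVZ without A4 (-1.05). The tissues come from the same mice and are not independent of each other. In the striatum 10 of 10 oligodendrocyte markers had a fold change below 0, with a median of -0.62. Of these, 8 had an unadjusted and 3 an adjusted p under 0.05 by edgeR, where 10.5% and 0.182% of all genes tested did. The summed level of the 10 was 2340 to 2990 CPM in the ablated and 2637 to 6444 CPM in the control mice. Of 10 astrocyte markers there 4 were lower at an unadjusted p under 0.05, 1 of them called, with a summed level of 4500 to 5335 and 4889 to 5992 CPM. The part of these markers in the values of Fgfr2 and Il6st was not tested. Tspo, the mitochondrial protein that binds the DBI peptide, was at 0 to 21.2 CPM in the ablated and 7.49 to 102 CPM in the control SVZ (-2.17, SE 0.786, adjusted p = 0.387). Its highest libraries were P2, T1 and P1, those rich in choroid plexus RNA, and without them the value was -1.24 (adjusted p = 0.887). Tspo was called without A2 (-2.90) and without G1 (-2.28), and also by DESeq2.

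Other ligands of the same families and genes that respond to these factors were counted in the same way, against the same shares of all genes. Of 18 family ligands 14 were tested in the SVZ and 9 in the striatum, and 0 were called in either. At an unadjusted p under 0.05, 1 was lower and 2 higher in the SVZ, and 1 lower and 1 higher in the striatum. Their median log2 fold change was -0.75 in the SVZ, with 9 of 14 below 0, and -0.18 in the striatum, with 7 of 9 below 0. The medians over all genes tested were -0.03 in the SVZ and 0.00351 in the striatum. Of the 14 ligands tested in the SVZ, Ntf5 (neurotrophin-4) alone was at 0 in every ablated library. With it at its bound of 3 counts per library the SVZ median was again -0.75. Of 12 target and feedback genes, among them the Sprouty and Spred inhibitors of receptor kinase signalling, 0 were called in either tissue, and 1 was higher in each at an unadjusted p under 0.05. Their median was 0.27 in the SVZ, with 3 of 12 below 0, and -0.12 in the striatum, with 7 of 12 below 0.

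In the contrasts of the 4 groups, named after their values were seen, Dusp6 in the SVZ was called as higher in NestinTK- GCV than in NestinTK- PBS mice (log2 difference 1.57, adjusted p = 0.644), a call lost without G2, G3, P1, P2 or P3. In the striatum Gfra2, the receptor of neurturin, was called as higher in that contrast (1.503, adjusted p = 0.128) and in the interaction (-2.28, adjusted p = 0.0932). The first call was lost without G3, P1 or P3 and the second without G3 or P1, and without G3 the values were 0.69 (adjusted p = 0.567) and -1.47 (adjusted p = 0.295). Ret in the striatum was at 1.19, 3.27 and 0.967 CPM in the NestinTK- PBS mice and at 7.86, 1.11, 3.26 and 18.9 CPM in the NestinTK+ PBS mice. The groups overlapped, and T4, the library that stood apart, was the highest. Ret was called as higher in NestinTK+ PBS mice (2.08, adjusted p = 0.727), and the call was lost without P1, P3, T1 or T4, with a value of 1.17 (adjusted p = 0.818) without T4. Below 2-fold, Flt1 was lower in the striatum of NestinTK- GCV than of NestinTK- PBS mice (-0.79, adjusted p = 0.0413), and Sort1 lower in NestinTK+ GCV than in NestinTK- GCV mice (-0.50, adjusted p = 0.0427). When single mice were left out these adjusted p-values ran up to 0.286 (without G2) and 0.181 (without G1). That of Flt1 was above 0.05 without A1, A2, A3, A4, G1, G2, P1 or P3, and that of Sort1 without A1, A2, A3, A4, G1, G2, G3, P1, P3 or T1.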

How the data were processed

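RNA was sequenced from SVZ (SMART-Seq v4) and striatum (QuantSeq 3′ FWD) of 15 mice. The deposited values are raw gene counts, which the authors made with STAR and featureCounts on mm10 with Gencode annotation. The submitters' processing notes name STAR 2.5.3a and Trimmomatic 0.36. The strand setting is not given in the sources used here. The infusion time comes from the study's methods.

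Each tissue was fitted apart with edgeR 4.0.16 (quasi-likelihood test, TMM, genes above 1 CPM in at least 3 libraries) and Benjamini-Hochberg adjustment over all genes tested, 5 ablated against 10 pooled control mice as in the study, and again with 4 groups. A call was a nominal p of at most 0.01 with at least a 2-fold change. The tissues were compared with limma 3.58.1 on the per-mouse SVZ minus striatum log2 CPM, the mouse number in the labels pairing the libraries. Exact permutation tests used log2 CPM with a prior count of 2. The edgeR script was tested on simulated data. Alternatives were DESeq2 1.42.0, limma-voom, other size factors, no filter, single control groups, a covariate and left-out mice. Libraries of a group differed by more than sampling noise. Depth limits are counting error only. The named genes were the 9 factors, their main receptors and any gene of the receptor, ligand and target lists that was called or had an adjusted p under 0.05 in ablated against control mice. Il6st, Fgfr2, Tspo, the genes named from the 4-group contrasts (Dusp6, Gfra2, Sort1) and Ntf5 fall outside that rule and were named after their values were seen. 1 gene of the receptor list, counted in it, is not reported here. The members and lists were chosen with earlier results of these data known.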

Additional observations from a re-analysis of the deposited data

Results flagged for a closer look

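In 54 groups of 4 to 10 libraries, 13 times a single library stood apart from the others of its group by Dixon's criterion. A chance rate of about 1 in 20 groups holds for independent, normally distributed values, so the 13 cannot be weighed against it. Bdnf, Ntf3 and Cntf had no count in most SVZ libraries, and the NestinTK+ PBS mice are also among the controls. In the SVZ the flagged cases were Bdnf in A2 (12.3 CPM, among the ablated mice) and in G3 (7.35 CPM, among the 10 controls), and Gdnf in A2 (10.4 CPM). Mdk was low in G3 (10.3 CPM). Ntf3 stood apart in A4 (4.24 CPM) and in T4 (7.83 CPM, both among the NestinTK+ PBS mice and among all controls), and Cntf in T1 (1.37 CPM) among the NestinTK+ PBS mice and in P3 (10.8 CPM) among the controls. In the striatum they were Bdnf in G3 (14.9 CPM), Fgf2 in A3 (7.39 CPM), Mdk in T4 (28.0 CPM) and Cntf in T4 (1.60 CPM). The effect of GCV on striatal Bdnf was called as different between NestinTK+ and NestinTK- mice in the interaction test (fitted log2 difference -4.56, adjusted p = 0.164 by edgeR). The fitted size is no measure of the change, and the call was lost without any of A1, A2, A5, G3, P1, P3, T2, T3 or T4.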

How the results depend on the processing

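In the fit of ablated against control mice 261 SVZ and 107 striatum genes were called, with 1 and 0 of the receptor, ligand and target genes and 0 factors. The fold change of Dbi in both tissues and of Gfra1 in the SVZ kept its sign under all 24 alternatives. Where another gene is given below, its log2 fold change had the opposite sign to the main value, and the cause was not tested. With DESeq2 in the SVZ, 493 genes were called, 3 of the receptor, ligand and target genes were called and Vegfa was at 0.00440. With limma-voom in the SVZ, 0 of the receptor, ligand and target genes were called and Vegfa was at 0.0525. With RLE size factors in the SVZ, Vegfa was at 0.00443. Without the filter on low counts in the SVZ, 1342 genes were called and 2 of the receptor, ligand and target genes were called. With NestinTK- GCV mice as the only controls in the SVZ, 74 genes were called, 0 of the receptor, ligand and target genes were called, Fgf2 was at 0.47, Ptn was at -0.0679, Mdk was at 0.29 and Ret was at 0.68. With NestinTK+ PBS mice as the only controls in the SVZ, 158 genes were called, 0 of the receptor, ligand and target genes were called, Ptn was at -0.00934 and Fgfr1 was at -0.0230. With the number series of the mice as a covariate in the SVZ, 0 of the receptor, ligand and target genes were called, Fgf2 was at 0.24, Ptn was at -0.0290, Mdk was at 0.0283, Gdnf was at 0.60 and Fgfr1 was at -0.0179. Within the later number series (chosen after seeing the data) in the SVZ, 157 genes were called, 0 of the receptor, ligand and target genes were called, Fgf2 was at 0.24, Ptn was at -0.0295, Mdk was at 0.0263, Gdnf was at 0.60 and Fgfr1 was at -0.0196. Without P1, P2 and T1 in the SVZ, 158 genes were called, 0 of the receptor, ligand and target genes were called, Vegfa was at 0.21, Fgf2 was at 0.0624, Ptn was at -0.0753, Mdk was at 0.0791 and Ptprz1 was at -0.0470. By adjusted p under 0.05 in the SVZ, 1 gene was called and 0 of the receptor, ligand and target genes were called. With DESeq2 in the striatum, 1 of the receptor, ligand and target genes was called. With limma-voom in the striatum, 190 genes were called, Bdnf was at 1.29 and Ret was at 0.32. Without the filter on low counts in the striatum, 330 genes were called. With NestinTK- GCV mice as the only controls in the striatum, 365 genes were called, 1 of the receptor, ligand and target genes was called, Vegfa was at -0.0526, Mdk was at 0.0117, Flt1 was at 0.35, Ret was at 1.38 and Cntfr was at 0.0292. With NestinTK+ PBS mice as the only controls in the striatum, 189 genes were called, Gdnf was at 0.0256, Ntrk3 was at 0.0803 and Kdr was at 0.24. With the number series of the mice as a covariate in the striatum, 175 genes were called, 1 factor was called, 1 of the receptor, ligand and target genes was called, Gdnf was at 0.0269, Ntrk3 was at 0.0938, Kdr was at 0.0242 and Flt1 was at 0.0932. Within the later number series (chosen after seeing the data) in the striatum, 168 genes were called, 1 of the receptor, ligand and target genes was called, Gdnf was at 0.0142, Ntrk3 was at 0.0840, Kdr was at 0.0153 and Flt1 was at 0.0858. Without P1, P2 and T1 in the striatum, Kdr was at 0.0507. By adjusted p under 0.05 in the striatum, 28 genes were called. Without the pairing of tissues by mouse (no replicate block), 12 genes differed between the tissues at an adjusted p under 0.05 against 4 with it, and the block changed no call of a factor at that threshold. Leaving out each mouse in turn gave the following ranges of counts and of log2 fold changes that crossed 0. For ablated against control in the SVZ, Fgf2 ranged from -0.93 to 0.0816, Mdk from -0.40 to 0.17, Ptprz1 from -0.0172 to 0.21, Vegfa from -0.20 to 0.17, the count of receptor, ligand and target calls from 0 to 2, Fgfr1 from -0.25 to 0.17 and Ret from -2.73 to 0.0453. For NestinTK- GCV minus NestinTK- PBS in the SVZ, calls of genes ranged from 105 to 200. For the interaction in the SVZ, calls of genes ranged from 87 to 179. For NestinTK+ PBS minus NestinTK- PBS in the SVZ, calls of genes ranged from 8 to 102 and Dbi from -0.19 to 0.0379. For NestinTK+ GCV minus NestinTK+ PBS in the SVZ, calls of genes ranged from 95 to 219. For ablated against control in the striatum, Bdnf ranged from -0.55 to 0.79, Ptn from -0.0410 to 0.0670, Kdr from -0.24 to 0.0282, the count of receptor, ligand and target calls from 0 to 1, Vegfa from -0.0743 to 0.15 and Ret from -0.71 to 0.23. For the interaction in the striatum, calls of factors ranged from 0 to 2 and calls of genes from 351 to 780. For NestinTK- GCV minus NestinTK- PBS in the striatum, Dbi ranged from -0.00817 to 0.19, calls of genes from 210 to 594 and calls of factors from 0 to 1. For NestinTK+ PBS minus NestinTK- PBS in the striatum, calls of factors ranged from 0 to 1 and Dbi from -0.13 to 0.0491. For NestinTK+ GCV minus NestinTK- GCV in the striatum, calls of genes ranged from 203 to 414 and Bdnf from -1.56 to 2.66. For NestinTK+ GCV minus NestinTK+ PBS in the striatum, calls of genes ranged from 106 to 288 and Bdnf from -0.65 to 0.23. For ablated against control in the SVZ minus the striatum, the count of genes at an adjusted p under 0.05 ranged from 0 to 15, Vegfa from -0.17 to 0.37, Mdk from -0.31 to 0.22 and Ptn from -0.0399 to 0.26. Bdnf, Ntf3 and Cntf in the SVZ were too low to be fitted, and the spread between SVZ libraries limits what could be seen for Fgf2 and Gdnf.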
